A study of Mus musculus with 25 samples.

Results

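The 52 genes described here encode proteins of the spliceosome: the Sm and Lsm rings and the other proteins of the small nuclear ribonucleoproteins (snRNPs), the U2AF dimer, factors that join when the complex is activated, and the serine- and arginine-rich (SR) splicing proteins. They were chosen by symbol, with no threshold on a measured value, but with earlier results of these data known. All 52 symbols were found among the 24412 of each library, and all 52 passed the filter on low values that left 12079 genes for testing. RNA was measured in mouse MII oocytes (unfertilised eggs arrested in the second meiotic division), zygotes at the pronuclear stage PN3, and 2-cell embryos taken early (E2C) or late (L2C), either wild type (WT) or Smarca4 knockout (KO). Smarca4 (Brg1) encodes the motor subunit of BAF, a complex that moves nucleosomes. The WT groups held 3 (MII), 4 (PN3), 3 (E2C) and 3 (L2C) libraries, and the KO groups 2, 4, 3 and 3. Per the labels' protocols, eggs for sperm injection came from hormone-primed (PMSG, then hCG) females aged 8 to 12 weeks. These were B6D2F1 hybrids or C57BL/6 animals carrying Smarca4flox/flox and Gdf9-Cre. Gdf9-Cre is active in growing oocytes, and no source used here gives the genotype of the sperm. The strain behind each library is not given either, so strain and genotype cannot be told apart.

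Introns are removed from pre-mRNA by the spliceosome. Each of the U1, U2, U4 and U5 snRNPs is an RNA wrapped in a ring of Sm proteins, while U6 RNA carries a ring of Lsm proteins instead. U1 marks the start of the intron, U2 with the SF3a and SF3b proteins marks the branch point, U2AF reads the end of the intron, and the U4/U6.U5 tri-snRNP then joins to build the catalytic core. SR proteins bind exons and help choose the sites that are used. A full-grown mouse oocyte is transcriptionally silent and relies on stored RNA, and the embryo's own transcription starts weakly in the zygote and strongly during the 2-cell stage.

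Smarca4 separated the genotypes at MII (26.1, 27.7 and 30.7 scaled FPKM in WT, 0.22 and 0.222 in KO), and at L2C it stood at 90.9, 74.4 and 48.8 in WT and 22.5, 21.1 and 22.6 in KO. Values are FPKM (fragments scaled to transcript length and library size) after rescaling between libraries, so they can be compared between genes but are relative to the other RNA of a library, and the read depth is unknown. Whether replicates came from different females is not stated, so every p-value reflects the scatter of these samples alone, which may be technical. All 10 oocyte markers were above 0 in every library, their summed FPKM lay between 4510 and 5010 at MII, and 10 cumulus and granulosa markers summed to between 1.31 and 17.9. Sperm and testis markers (7) summed to 21.0 in KO E2C replicate 2 and to between 1.25 and 8.9 in the other 24 libraries. Blood markers (6) summed to between 0 and 2.11. WT L2C replicate 3 stood apart from the other WT L2C libraries: its oocyte markers summed to 2270 against 841 and 1030, and its 2-cell markers to 253 against 58.1 and 73.5, close to the KO L2C libraries (2080 to 3100 and 201 to 236). WT E2C replicate 2 had 9345 genes above 0 where the other 24 libraries had 13585 to 16698, and 6 of the 52 splicing genes were listed at 0 in it. Rn45s, a ribosomal RNA gene, read 7400 in WT and 11000 in KO E2C replicate 3, and 817 to 2610 in the other E2C libraries. Its bearing on the E2C values was not tested. In these bulk samples, fewer cells of a type and less RNA per cell cannot be told apart.

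In unfertilised WT eggs the mean levels of the splicing genes ran from 119 scaled FPKM (Snrnp27) down to 1.08 (Prpf4). Their 52 FPKM values summed to between 1787 and 1819 in the WT MII libraries, 1621 to 1676 at PN3, 1632 to 1792 at E2C and 1756 to 2133 at L2C. The total hid a change of composition. SR protein genes summed to 168 to 174 in WT MII libraries and 450 to 543 at L2C, whereas the tri-snRNP genes summed to 375 to 393 at MII and 121 to 187 at L2C. The most abundant of the 52 in WT was Snrnp27 at MII (119 ± 5.63, SD, n = 3) and Snrpc at L2C (171 ± 2.68, n = 3).

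**Figure D1:**
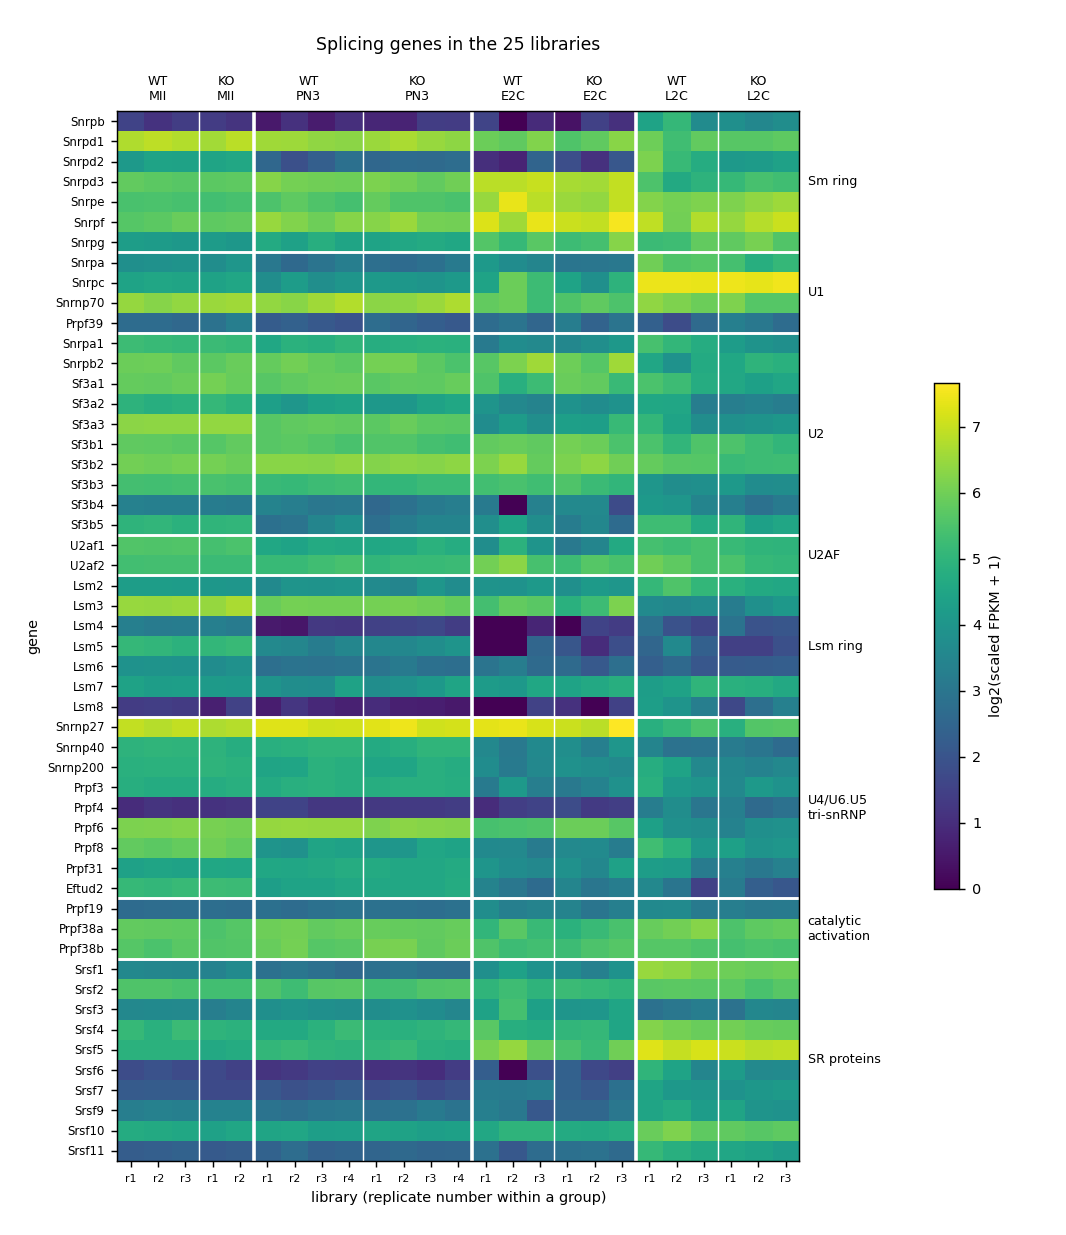
Heat map of the 52 splicing genes (rows, in blocks by role) in the 25 libraries (columns, by stage and genotype), coloured by log2(scaled FPKM + 1). The Snrpb row is dark in all MII, PN3 and E2C libraries and brighter in all 6 L2C libraries, the Srsf1 and Snrpc rows are brightest at L2C, and the Snrnp27, Prpf6 and Lsm3 rows are darker at L2C than at MII.

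The WT stages were compared in 1 limma model on log2(scaled FPKM + 1), with an adjusted p under 0.05 over all 12079 genes as the threshold for a call. A log2 difference on this scale understates the change of genes near 0. From MII to PN3, 11 of the 52 genes rose and 26 fell, where 19.2% of all genes rose and 26.1% fell, and the median difference was -0.18 against 0.00 over all genes. The members that fell made up 26 of 52, above the background share. From PN3 to E2C, 13 rose and 12 fell (background 12.9% and 18.1%), with a median of -0.03 against -0.05. With FPKM as deposited, without rescaling, this split was 10 and 19 (background 7.77% and 25.2%, median of all genes -0.20). From E2C to L2C, 25 rose and 9 fell (background 34.1% and 18.3%), and the median was 0.56 against 0.25. Without WT L2C replicate 3, 27 rose and 8 fell at this step (background 35.3% and 19.8%), and without WT E2C replicate 2, 24 rose and 7 fell (background 32.3% and 19.8%). Between the ends of the series, MII and L2C, 20 rose and 21 fell (background 40.4% and 33.3%). These comparisons share libraries and are given side by side. With every library weighted equally, 0 rose and 9 fell from MII to PN3 (background 2.83% and 8.27%). With only the 2 groups of a step in the fit, 3 of these calls were lost from MII to PN3 (Prpf38b, Snrnp200 and Srsf11, adjusted p 0.065 to 0.135), 8 from PN3 to E2C (Prpf19, Prpf38a, Sf3a1, Snrnp70, Snrpa, Snrpf, Srsf10 and U2af2, 0.0584 to 0.161) and 4 from E2C to L2C (Prpf3, Sf3b2, Sf3b4 and Snrnp200, 0.0892 to 0.119). In those fits 18.4%, 6.83% and 28.4% of all genes rose, and 25.4%, 10.6% and 13.8% fell.

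**Figure D2:**
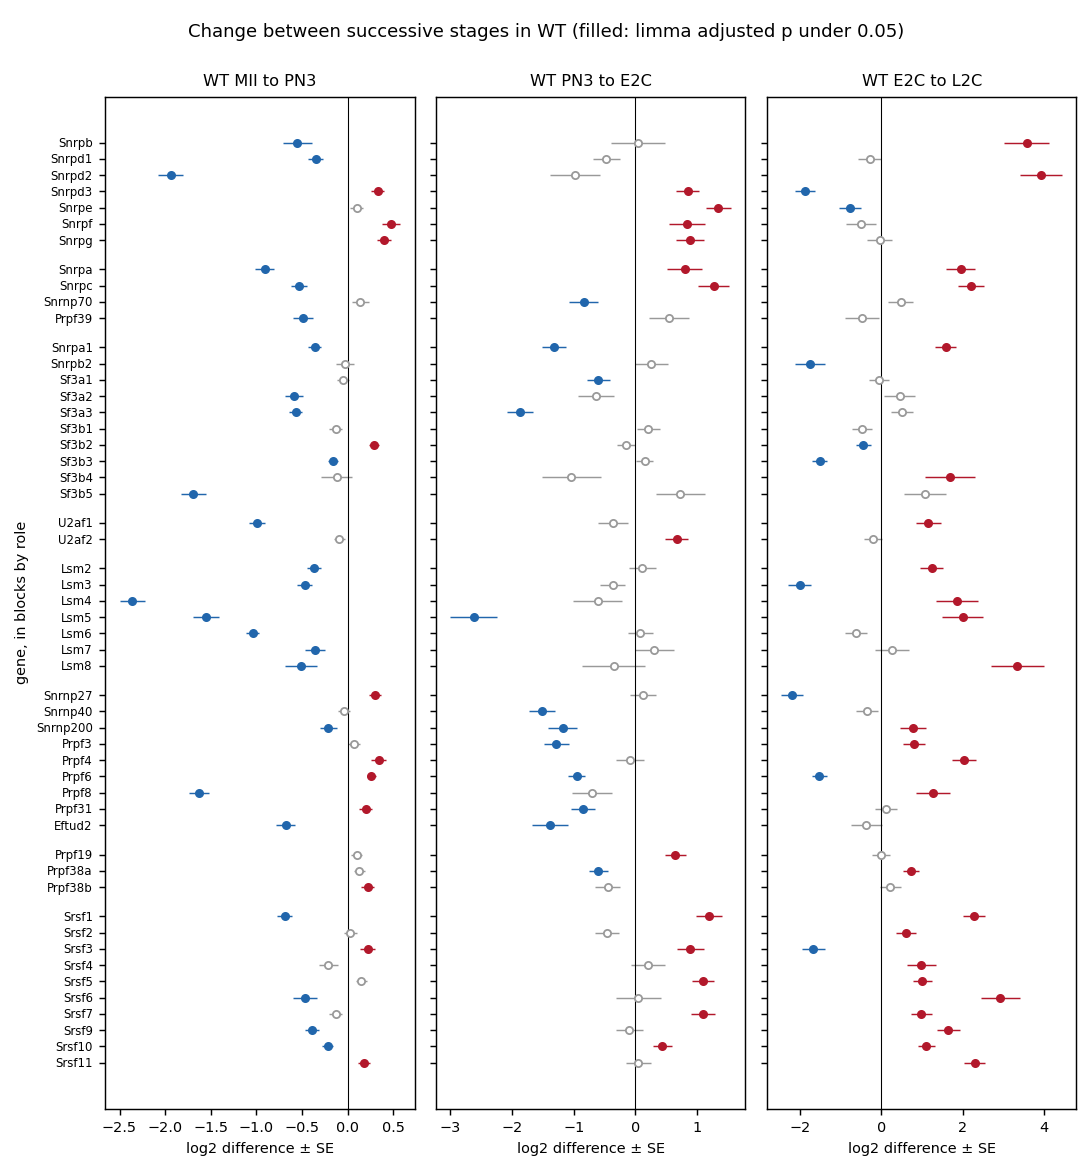
Log2 difference ± SE (x axis) of each splicing gene (y axis, in blocks by role) between successive WT stages, in 3 panels. Filled points passed limma's adjusted p under 0.05, red for genes that rose and blue for genes that fell, and open grey points did not pass. From E2C to L2C, 9 of the 10 SR protein genes are red and Srsf3 is blue, and from MII to PN3 all 7 Lsm ring genes are blue.

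The Sm ring is built from 7 proteins that assemble in equal numbers on U1, U2, U4 and U5 RNA, yet their messages lay far apart until L2C. In WT eggs Snrpb (which encodes SmB and SmB′) was the lowest, followed by Snrpg (mean 17.3 scaled FPKM) and Snrpd2 (SmD2, 19.2). Before L2C, Snrpd1, Snrpd3, Snrpe and Snrpf were above both Snrpb and Snrpd2 in every WT library. From PN3 to E2C, 4 of the 7 rose (Snrpd3, Snrpe, Snrpf and Snrpg) and 0 fell (background 12.9% and 18.1%). From E2C to L2C, 2 rose (Snrpb and Snrpd2) and 2 fell (Snrpd3 and Snrpe), against 34.1% and 18.3% of all genes. The highest Sm gene exceeded the lowest by 55.3-fold to 99.1-fold in the WT MII libraries, and by 5.85-fold, 2.74-fold and 9.16-fold in the 3 WT L2C libraries.

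The promoters of Snrpd2, which rose most from E2C to L2C, and of Snrpd3, which fell, are shown because this pair codes for partners in 1 ring and moved in opposite directions. Each window is the 250 bases before the start of the gene in RefSeq (build GRCm38.p6), 5′ to 3′ on the gene's strand. Capitals mark matches, on either strand, to 6 motifs that were searched, namely CCGGAAG (the core of ETS sites), GGGCGG (the GC box), CCAAT (the CCAAT box), TATAAA (the TATA box), CGCATGCG (the NRF1 core) and TCTCGCGA (a core promoter element). The Snrpd2 window is chr7:19149588-19149837 and the Snrpd3 window chr10:75517792-75518041, both on the plus strand. RefSeq and GENCODE place these starts differently: in GENCODE the Snrpd2 window runs past the start of the gene, and the Snrpd3 window lies wholly inside the gene, which Gucd1 overlaps on the other strand.
Snrpd2: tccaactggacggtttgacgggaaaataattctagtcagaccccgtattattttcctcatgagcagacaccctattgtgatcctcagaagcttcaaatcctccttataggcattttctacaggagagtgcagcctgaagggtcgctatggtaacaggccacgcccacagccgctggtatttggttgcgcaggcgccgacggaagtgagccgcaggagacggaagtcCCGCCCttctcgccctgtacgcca
Snrpd3: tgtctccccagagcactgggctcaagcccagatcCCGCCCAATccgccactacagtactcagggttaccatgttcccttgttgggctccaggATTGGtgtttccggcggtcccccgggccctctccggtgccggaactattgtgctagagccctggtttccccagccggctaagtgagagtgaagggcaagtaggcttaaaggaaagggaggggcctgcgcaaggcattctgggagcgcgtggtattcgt
The Snrpd2 window holds 1 match to GGGCGG, and the Snrpd3 window holds 1 match to GGGCGG that overlaps 1 of its 2 matches to CCAAT.

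Snrpd2 stood at 16.3, 20.9 and 20.4 in MII, 4.88, 2.68, 3.95 and 6.07 in PN3, 1.05, 0.691 and 4.48 in E2C, and 69.2, 34.5 and 25.7 in L2C in the WT libraries. In KO libraries Snrpd2 was 21 and 23.1 in MII, 4.84, 5.41, 5.28 and 5.65 in PN3, 2.59, 1.11 and 3.19 in E2C, and 16.2, 17.3 and 19.8 in L2C. Stored Snrpd2 RNA was thus higher in every WT MII library than in any PN3 library, and every WT L2C library lay above all earlier ones. It fell from MII to PN3 (-1.94 ± 0.14, limma adjusted p = 1.11e-10) and rose from E2C to L2C (3.93 ± 0.52, limma adjusted p = 1.4e-06).

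Snrpf, the most abundant Sm gene on average, encodes SmF and in WT was 48.6, 51.8 and 59.3 in MII, 88, 72.8, 61.5 and 76.8 in PN3, 151, 93.6 and 168 in E2C, and 121, 64.8 and 109 in L2C. The KO libraries gave Snrpf values of 53.7 and 55.7 in MII, 76, 90.8, 65.1 and 64.7 in PN3, 132, 124 and 186 in E2C, and 86.4, 110 and 131 in L2C. It rose from MII to PN3 (0.48 ± 0.10, limma adjusted p = 0.000483) and from PN3 to E2C (0.84 ± 0.29, limma adjusted p = 0.0284). The second rise was lost without WT E2C replicate 1 (adjusted p = 0.128) and without WT E2C replicate 3 (0.160), and with FPKM as deposited (0.105).

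Among the other Sm genes, Snrpb was 2.0, 0 and 0.933 in the WT E2C libraries and 20.7, 33.5 and 11.9 at L2C (3.57 ± 0.56, limma adjusted p = 1.4e-05). Snrpn, an imprinted paralog that codes for the nearly identical SmN and was looked at after the values were seen, was 9.6, 0 and 6.01 at WT E2C and 12.7, 9.45 and 10.9 at L2C. The sources used here do not state whether counting used strand, so overlapping and antisense genes are uncertain too. Reads from such close copies, and from processed copies of Sm genes elsewhere in the genome, can be shared between genes, so single Sm values are uncertain. Snrpd3 fell from 115, 116 and 129 to 45, 23.9 and 30.2 over the same step (-1.87 ± 0.25, limma adjusted p = 1.76e-06). Snrpe rose before it fell, with 44.9, 53.7, 46 and 41.5 in PN3 libraries, then 87.9, 169 and 116 in E2C and 74.9, 65.5 and 71.3 in L2C libraries, and the fall (-0.76 ± 0.27, limma adjusted p = 0.0212) was lost without WT E2C replicate 2 (adjusted p = 0.105) or WT L2C replicate 2 (0.0653). Snrpd1 (SmD1) fell from 106, 117 and 109 at MII to 61.9, 38.7 and 55 at L2C (-1.1 ± 0.19, limma adjusted p = 2.1e-05).

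**Figure D3:**
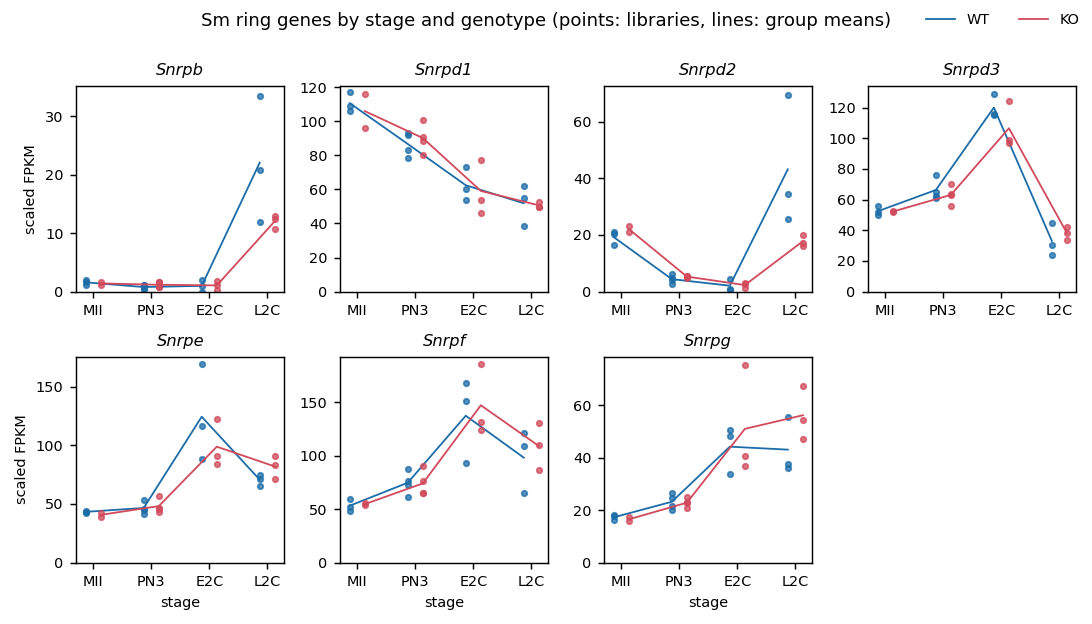
Scaled FPKM (y axis) of the 7 Sm ring genes by stage (x axis), with points for libraries and lines through group means, WT in blue and KO in red. Snrpb stays at 2.0 or below until L2C, Snrpd2 falls and then rises in WT to 25.7, 34.5 and 69.2, and Snrpd3 peaks at E2C in both genotypes.

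U1-specific proteins recognise the 5′ splice site with U1 RNA. Of the 4 genes, 3 fell from MII to PN3 and 0 rose, 2 rose and 1 fell from PN3 to E2C, and 2 rose from E2C to L2C. At these steps 19.2%, 12.9% and 34.1% of all genes rose, and 26.1%, 18.1% and 18.3% fell. Snrpc, whose product stabilises U1 binding to the 5′ splice site, in WT was 20.7, 22.1 and 21 in MII, 12.6, 17.7, 12.8 and 14.9 in PN3, 20.9, 60.9 and 36.7 in E2C, and 173, 171 and 168 in L2C. In KO libraries Snrpc stood at 20.5 and 22 in MII, 16.5, 15.6, 14.7 and 16.3 in PN3, 20.6, 13.2 and 30.2 in E2C, and 174, 166 and 181 in L2C. All 6 L2C libraries of both genotypes lay between 166 and 181. Snrpc fell from MII to PN3 (-0.53 ± 0.09, limma adjusted p = 2.39e-05) and then rose at each step (1.27 ± 0.25, limma adjusted p = 0.000427, and 2.21 ± 0.32, limma adjusted p = 4.54e-06).

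Snrpa, the protein of U1 that binds a stem-loop of its RNA, in WT was 13.1, 13.6 and 14.4 in MII, 7.29, 5.09, 6.74 and 8.59 in PN3, 16.3, 12.1 and 10.2 in E2C, and 62.5, 46 and 48.4 in L2C. The KO values of Snrpa were 12.4 and 15.1 in MII, 5.91, 5.39, 6.12 and 7.67 in PN3, 6.85, 7.02 and 7.46 in E2C, and 41, 26.9 and 33.2 in L2C. The gene fell from MII to PN3 (-0.91 ± 0.10, limma adjusted p = 7.89e-08) and rose from E2C to L2C (1.95 ± 0.36, limma adjusted p = 9.86e-05), and its rise from PN3 to E2C (0.8 ± 0.28, limma adjusted p = 0.0328) was lost without WT E2C replicate 1 (adjusted p = 0.188) and with FPKM as deposited (0.0928). Snrnp70, which encodes the largest U1-specific protein and the contact point for SR proteins, in WT was 85.8, 75.5 and 85.1 in MII, 84.3, 77.7, 93.4 and 109 in PN3, 55.6, 60.2 and 37.3 in E2C, and 82.2, 70.7 and 60.0 in L2C and thus stayed in the upper range throughout. Its KO libraries read 89.4 and 93.7 in MII, 78.6, 80.3, 90.2 and 105 in PN3, 45.9, 54.6 and 44.9 in E2C, and 72, 48.5 and 48.5 in L2C. Snrnp70 fell from PN3 to E2C (-0.84 ± 0.24, limma adjusted p = 0.0105), a call that was lost without WT E2C replicate 3 (adjusted p = 0.109).

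U2 proteins and the SF3a and SF3b complexes hold U2 RNA on the branch point. Of these 10 genes, 1 rose and 5 fell from MII to PN3, 0 rose and 3 fell from PN3 to E2C, and 2 rose and 3 fell from E2C to L2C. At these steps 19.2%, 12.9% and 34.1% of all genes rose, and 26.1%, 18.1% and 18.3% fell. From MII to L2C, 0 rose and 7 fell (background 40.4% and 33.3%). The pair of proteins that bind U2 RNA together diverged: Snrpa1 (the leucine-rich repeat protein of U2) rose from E2C to L2C while its partner Snrpb2 fell.

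Snrpb2 in WT was 60.4, 61.1 and 54.4 in MII, 56.9, 63.6, 56.2 and 52.5 in PN3, 49.5, 69.2 and 94.3 in E2C, and 21.9, 14 and 24.9 in L2C. The KO libraries held Snrpb2 at 51.9 and 58.7 in MII, 65.3, 65.3, 52.3 and 44 in PN3, 61.5, 49.3 and 94.6 in E2C, and 22.5, 30.8 and 28.1 in L2C. All L2C libraries were below all earlier ones, and the WT fall from E2C to L2C was -1.75 ± 0.36, limma adjusted p = 0.000256. Snrpa1 in WT was 36.8, 35 and 33.6 in MII, 22.6, 28.9, 27 and 31.1 in PN3, 7.97, 12.2 and 11.2 in E2C, and 42.3, 32.9 and 26 in L2C, a dip at E2C with a return at L2C. Snrpa1 fell from MII to PN3 (-0.36 ± 0.07, limma adjusted p = 0.00025) and from PN3 to E2C (-1.32 ± 0.20, limma adjusted p = 3.18e-05), and rose from E2C to L2C (1.59 ± 0.26, limma adjusted p = 2.2e-05).

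Sf3b5, a small SF3b subunit encoded by a gene with 1 exon, in WT was 30.3, 31.6 and 28.8 in MII, 6.11, 6.69, 10.3 and 13.3 in PN3, 12.9, 20.8 and 12.6 in E2C, and 38, 37.7 and 24.5 in L2C. In KO libraries Sf3b5 stood at 31.5 and 31.9 in MII, 5.9, 8.32, 9.94 and 9.9 in PN3, 8.38, 10.6 and 5.34 in E2C, and 31.1, 19.4 and 21.9 in L2C. The message fell from MII to PN3 (-1.69 ± 0.14, limma adjusted p = 1.29e-09) and its later differences did not pass. Sf3b2, the most abundant U2 gene on average, encodes a scaffold of SF3b and in WT was 64.8, 61.6 and 66.1 in MII, 78.3, 77.2, 76.1 and 82.3 in PN3, 70.5, 87.5 and 56.8 in E2C, and 56.9, 49.6 and 48.6 in L2C. Its KO values were 66.1 and 60.0 in MII, 74.8, 80.1, 75.9 and 81.3 in PN3, 70.4, 81.8 and 63.4 in E2C, and 35.8, 37.3 and 37.9 in L2C. Sf3b2 rose from MII to PN3 (0.29 ± 0.05, limma adjusted p = 4.77e-05) and fell from E2C to L2C (-0.44 ± 0.18, limma adjusted p = 0.0434), and this fall was lost without WT E2C replicate 2 (adjusted p = 0.184) and without 3 other libraries, WT E2C replicate 1 and WT L2C replicates 2 and 3 (0.0836, 0.107 and 0.0720). Large differences in this group also came from Sf3a3, which holds the SF3a complex to U2 and fell from PN3 to E2C (-1.87 ± 0.21, limma adjusted p = 3.29e-07), and from Sf3b3, which fell from E2C to L2C (-1.51 ± 0.19, limma adjusted p = 4.58e-07). Sf3b4, which was 7.76, 0 and 9.25 at WT E2C and 16.3, 15.1 and 9.93 at L2C, was called higher at L2C (1.69 ± 0.62, limma adjusted p = 0.0245), but not without WT E2C replicate 2, where it was listed at 0 (0.61, adjusted p = 0.297), nor without WT L2C replicates 1 (1.57, 0.0672) or 2 (1.62, 0.0656).

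U2AF reads the 3′ end of the intron, U2af2 the pyrimidine tract and U2af1 the AG. U2af1 in WT was 47.1, 45.9 and 46.8 in MII, 22.8, 20.7, 24.5 and 23.8 in PN3, 12.5, 29.3 and 14.7 in E2C, and 41.2, 38 and 42.4 in L2C, lower at every PN3 library than at any MII library. KO libraries held U2af1 at 41.4 and 44.3 in MII, 22.6, 23.7, 28.6 and 25.7 in PN3, 7.55, 10.1 and 24 in E2C, and 34.9, 31.5 and 30.9 in L2C. It fell from MII to PN3 (-0.99 ± 0.09, limma adjusted p = 1.32e-09) and rose from E2C to L2C (1.16 ± 0.31, limma adjusted p = 0.00313). U2af2 in WT was 39.3, 40.2 and 40.6 in MII, 34.8, 35, 38.8 and 42.3 in PN3, 64.8, 80.1 and 42 in E2C, and 63.4, 53.3 and 42.2 in L2C. Its KO libraries stood at 35.9 and 35.9 in MII, 31.8, 35.2, 34.5 and 36.1 in PN3, 37.2, 49.1 and 43 in E2C, and 44.1, 34.3 and 32.8 in L2C. U2af2 rose from PN3 to E2C (0.67 ± 0.18, limma adjusted p = 0.00635), a call that was lost with only these groups in the fit (adjusted p = 0.0794), and its difference from E2C to L2C was -0.2 ± 0.23, limma adjusted p = 0.494.

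The Lsm2 to Lsm8 ring caps the 3′ end of U6 RNA, and Lsm8 is the subunit that sets this nuclear ring apart from the cytoplasmic ring that takes part in mRNA decay, where Lsm1 takes its place. From MII to PN3 all 7 genes fell, with a median of -0.51, although Lsm7 was lost without WT MII replicate 1 (adjusted p = 0.0553) or WT PN3 replicates 2 or 3 (0.0656 and 0.0780) and Lsm8 without WT MII replicate 2 (0.0603) or WT PN3 replicates 1 or 4 (0.0889 and 0.0660). From PN3 to E2C, 0 rose and 1 fell (Lsm5, -2.62 ± 0.38, limma adjusted p = 1.77e-05). From E2C to L2C, 4 rose and 1 fell. At the 3 steps 19.2%, 12.9% and 34.1% of all genes rose, and 26.1%, 18.1% and 18.3% fell.

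Lsm4 in WT was 8.93, 8.03 and 8.34 in MII, 0.455, 0.387, 1.42 and 1.36 in PN3, 0, 0 and 0.739 in E2C, and 6.34, 2.81 and 2.04 in L2C. Across KO libraries Lsm4 was 8.83 and 8.01 in MII, 1.77, 1.97, 2.16 and 1.63 in PN3, 0, 1.88 and 1.55 in E2C, and 6.57, 2.86 and 3.11 in L2C. The gene was at 8.01 FPKM or above in every egg library and under 2.2 in every PN3 and E2C library, and it was listed at 0 in 3 of the 6 E2C libraries. Its fall from MII to PN3 (-2.36 ± 0.14, limma adjusted p = 4.24e-12) was the largest of the 52. Lsm8 in WT was 1.56, 1.69 and 1.5 in MII, 0.518, 1.31, 0.86 and 0.644 in PN3, 0, 0 and 1.84 in E2C, and 18.4, 14.5 and 8.76 in L2C. The KO libraries held Lsm8 at 0.599 and 1.86 in MII, 0.967, 0.604, 0.577 and 0.446 in PN3, 1.11, 0 and 1.77 in E2C, and 2.18, 6.0 and 9.13 in L2C. It rose in WT from E2C to L2C (3.34 ± 0.65, limma adjusted p = 0.000173), from 2 libraries listed at 0 and 1 at 1.84. Lsm3, the most abundant of the ring, moved the other way at this step and in WT was 88.2, 87 and 89.5 in MII, 58.8, 65.2, 64.5 and 64.4 in PN3, 40.2, 55.8 and 51.4 in E2C, and 11.6, 10.7 and 12 in L2C. In KO embryos Lsm3 read 86.9 and 101 in MII, 66.2, 67.4, 63.1 and 56.9 in PN3, 28, 36.8 and 69.2 in E2C, and 8.29, 13.3 and 15.9 in L2C. It fell from MII to PN3 (-0.47 ± 0.08, limma adjusted p = 1.77e-05) and again between the 2-cell stages (-2.0 ± 0.28, limma adjusted p = 2.54e-06), and at L2C Lsm2, at 33.3, 45.5 and 32.3, was above Lsm3 in every WT library.

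The tri-snRNP delivers the catalytic parts. Of its 9 genes, 4 rose and 3 fell from MII to PN3, 0 rose and 6 fell from PN3 to E2C, and 4 rose and 2 fell from E2C to L2C. At these steps 19.2%, 12.9% and 34.1% of all genes rose, and 26.1%, 18.1% and 18.3% fell. From MII to L2C, 1 rose and 7 fell (background 40.4% and 33.3%). The 6 that fell from PN3 to E2C were Snrnp40, Snrnp200 (the helicase that unwinds U4 from U6), Prpf3, Prpf6, Prpf31 and Eftud2 (the GTPase of U5), by 0.85 to 1.51 on the log2 scale. Other calls hung on single libraries (limma adjusted p in brackets). The MII to PN3 fall of Snrnp200 needed every WT MII library and WT PN3 replicates 1 and 2 (0.0761 to 0.218). The Prpf31 rise there needed WT MII replicates 1 and 3 and WT PN3 replicates 3 and 4 (0.0647 to 0.123). From E2C to L2C, Snrnp200 needed WT E2C replicates 2 and 3 and WT L2C replicates 1 and 2 (0.0656 to 0.198). Prpf3 needed WT E2C replicates 1 and 3 and WT L2C replicate 1 (0.0681 to 0.104).

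Snrnp27, a tri-snRNP protein with an SR-like domain, in WT was 122, 112 and 122 in MII, 154, 154, 138 and 140 in PN3, 161, 169 and 147 in E2C, and 27.4, 33.6 and 43.7 in L2C. Among KO libraries Snrnp27 was 105 and 112 in MII, 158, 174, 138 and 141 in PN3, 130, 116 and 201 in E2C, and 27.7, 47.7 and 49.6 in L2C. Every library before L2C was at 105 or above and every L2C library at 49.6 or below, and the WT fall from E2C to L2C was -2.18 ± 0.27, limma adjusted p = 4.57e-07. Prpf8, the large protein that cradles the active site, in WT was 55.9, 52.4 and 56.2 in MII, 14.5, 13.7, 21.2 and 19.9 in PN3, 11.4, 11.1 and 8.12 in E2C, and 38.6, 28.6 and 15.7 in L2C. Its KO libraries gave 62.6 and 56.4 in MII, 15.1, 15.4, 22.1 and 20.9 in PN3, 11.1, 11.6 and 8.28 in E2C, and 19.3, 14.3 and 15.4 in L2C. Prpf8 fell from MII to PN3 (-1.63 ± 0.11, limma adjusted p = 4.3e-11) and the MII and PN3 libraries did not overlap in either genotype. It was called higher at L2C than at E2C (1.28 ± 0.42, limma adjusted p = 0.0125), but not without WT L2C replicate 1 (1.0, adjusted p = 0.0709) or WT E2C replicate 3 (1.14, 0.0534). Prpf6, which bridges U5 and U4/U6, fell at both 2-cell steps (-0.95 ± 0.14, limma adjusted p = 1.61e-05, and -1.52 ± 0.18, limma adjusted p = 2.62e-07), from 85.5, 87.4, 85.6 and 85.9 at PN3 to 19.3, 13.4 and 12.4 at L2C. Prpf4, which pairs with Prpf3 on U4/U6, was one of the lowest members until E2C and rose to 8.53, 12.6 and 7.08 at L2C (2.04 ± 0.30, limma adjusted p = 6.14e-06).

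Prpf38a and its relative Prpf38b act when the assembled complex is activated, and Prpf19 is a ubiquitin ligase of the same phase. Prpf38a in WT was 55.9, 53.9 and 53.1 in MII, 61.3, 64.5, 55.6 and 57.4 in PN3, 32.2, 51.4 and 35.7 in E2C, and 58.2, 64.6 and 75.5 in L2C. In KO samples Prpf38a stood at 45 and 48.8 in MII, 58, 56.2, 54.9 and 57.6 in PN3, 28.9, 35.7 and 43.4 in E2C, and 45, 53.6 and 57.2 in L2C. It rose from E2C to L2C (0.74 ± 0.20, limma adjusted p = 0.00356) after a fall from PN3 to E2C (-0.6 ± 0.15, limma adjusted p = 0.00507) that was lost without WT E2C replicate 1 (adjusted p = 0.0709). Prpf38b in WT was 48.7, 44.1 and 50.8 in MII, 57.6, 66.3, 49.2 and 51.3 in PN3, 46.2, 36.7 and 39.2 in E2C, and 49.1, 48.7 and 44.5 in L2C. The KO series for Prpf38b was 46.8 and 48.3 in MII, 66.7, 68.7, 54.4 and 60.5 in PN3, 37, 45.1 and 49 in E2C, and 41.2, 44.2 and 42.4 in L2C. Of the 3 successive steps 1 passed, a rise from MII to PN3 (0.22 ± 0.07, limma adjusted p = 0.017) that was lost without WT MII replicate 2 (0.101) or WT PN3 replicates 1 or 2 (0.0514 and 0.127). Prpf39, which belongs to U1, in WT was 5.52, 5.52 and 5.04 in MII, 3.72, 4.23, 3.4 and 2.86 in PN3, 5.53, 6.64 and 4.78 in E2C, and 4.09, 2.4 and 5.32 in L2C and fell from MII to PN3 (-0.49 ± 0.11, limma adjusted p = 0.000975). Its KO libraries stood at 6.4 and 8.6 in MII, 5.66, 4.63, 3.9 and 3.41 in PN3, 8.46, 4.39 and 6.72 in E2C, and 8.98, 7.34 and 5.47 in L2C.

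The SR proteins bind exonic enhancers and recruit U1 and U2AF. Of their 10 genes, 9 rose and 1 fell from E2C to L2C (background 34.1% and 18.3%), with a median of 1.06 against 0.25 over all genes. From MII to PN3, 2 rose and 4 fell (background 19.2% and 26.1%), and from PN3 to E2C, 5 rose and 0 fell (12.9% and 18.1%). Promoters are shown for Srsf1, among the strongest risers, for Srsf3, the 1 SR gene that fell, and for Srsf7, which differed between genotypes in eggs. The windows are chr11:88047123-88047372 and chr17:29032410-29032659 on the plus strand and chr17:80207306-80207555 on the minus strand, drawn and marked as above. The Srsf3 window runs past the start of the gene in GENCODE.
Srsf1: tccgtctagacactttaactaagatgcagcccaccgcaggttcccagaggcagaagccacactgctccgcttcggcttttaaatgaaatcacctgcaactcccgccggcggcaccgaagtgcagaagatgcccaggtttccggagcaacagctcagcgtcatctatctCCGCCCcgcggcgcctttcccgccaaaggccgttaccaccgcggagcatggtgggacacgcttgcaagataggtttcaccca
Srsf3: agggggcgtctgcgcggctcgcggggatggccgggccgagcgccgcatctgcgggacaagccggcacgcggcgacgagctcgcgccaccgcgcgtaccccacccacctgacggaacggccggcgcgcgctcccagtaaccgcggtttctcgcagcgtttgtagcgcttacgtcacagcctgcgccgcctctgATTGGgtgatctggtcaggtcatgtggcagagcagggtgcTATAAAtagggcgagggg
Srsf7: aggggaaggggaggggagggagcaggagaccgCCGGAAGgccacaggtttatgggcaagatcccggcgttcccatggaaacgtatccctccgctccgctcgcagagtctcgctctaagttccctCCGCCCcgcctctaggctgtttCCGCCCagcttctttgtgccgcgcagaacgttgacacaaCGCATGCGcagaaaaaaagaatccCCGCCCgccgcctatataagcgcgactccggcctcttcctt
The GGGCGG motif was found in the windows of all SR genes but Srsf3, which holds 1 CCAAT and 1 TATAAA. The Srsf7 window holds 3 matches to GGGCGG, 1 to CCGGAAG and 1 to CGCATGCG.

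Srsf1, the founding SR protein that selects 5′ splice sites, in WT was 11, 10.4 and 10.2 in MII, 6.23, 7.05, 6.16 and 5.2 in PN3, 13.1, 19.8 and 13.9 in E2C, and 88.7, 81.1 and 66.6 in L2C. In KO libraries Srsf1 stood at 9.43 and 11.6 in MII, 6.13, 6.68, 5.87 and 5.61 in PN3, 12.1, 9.1 and 14 in E2C, and 61.5, 57.5 and 62.1 in L2C. No WT L2C library overlapped any earlier WT library. Srsf1 fell from MII to PN3 (-0.69 ± 0.08, limma adjusted p = 6.48e-08) and then rose at both 2-cell steps (1.2 ± 0.21, limma adjusted p = 0.000155, and 2.28 ± 0.27, limma adjusted p = 3.43e-07). Srsf3, which also takes part in mRNA export, in WT was 11, 11.5 and 11.1 in MII, 13, 14.2, 13 and 12.6 in PN3, 20.3, 41 and 19.4 in E2C, and 6.31, 7.17 and 8.44 in L2C. Its KO values were 8.77 and 9.98 in MII, 12.5, 13.6, 12.2 and 10.5 in PN3, 15, 15.2 and 21.7 in E2C, and 6.44, 10.7 and 10.1 in L2C. Srsf3 rose from MII to PN3 (0.22 ± 0.08, limma adjusted p = 0.0216), a call that was lost without WT MII replicates 1 or 3 (adjusted p = 0.0587 and 0.0525) or WT PN3 replicate 2 (0.0762), and from PN3 to E2C (0.89 ± 0.22, limma adjusted p = 0.00323). It then fell from E2C to L2C (-1.67 ± 0.28, limma adjusted p = 2.9e-05), where all WT L2C libraries were below all other WT libraries.

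Srsf5, the most abundant SR gene on average, in WT was 28.6, 28.8 and 28.8 in MII, 32.4, 34.4, 31.2 and 29.9 in PN3, 68, 85.6 and 58.1 in E2C, and 156, 125 and 146 in L2C. The KO values of Srsf5 were 23.4 and 25 in MII, 32, 34.9, 27.9 and 27 in PN3, 42.6, 35.4 and 62.4 in E2C, and 132, 115 and 120 in L2C. It rose at both 2-cell steps (1.1 ± 0.18, limma adjusted p = 7.25e-05, and 1.01 ± 0.23, limma adjusted p = 0.000925). Srsf6, which like Srsf5 belongs to the SR proteins with a second RNA-binding domain, in WT was 2.4, 2.77 and 2.33 in MII, 1.23, 1.43, 1.77 and 1.71 in PN3, 3.91, 0 and 2.65 in E2C, and 31.1, 20.9 and 10.2 in L2C. Across KO embryos and eggs Srsf6 was 2.22 and 1.82 in MII, 1.12, 1.24, 1.02 and 1.58 in PN3, 4.21, 2.14 and 1.74 in E2C, and 17.3, 11.2 and 11.7 in L2C. It made the largest rise of the SR genes from E2C to L2C (2.93 ± 0.47, limma adjusted p = 1.51e-05), with 1 WT E2C library listed at 0. Srsf10, an SR-like protein that represses splicing when dephosphorylated, in WT was 25.1, 23.9 and 22.4 in MII, 21.3, 22.1, 18.7 and 19.2 in PN3, 23.1, 30.6 and 30.3 in E2C, and 59.5, 71.8 and 53.5 in L2C. Its KO libraries read 19.7 and 22 in MII, 21.1, 20.4, 18.8 and 19.5 in PN3, 24.4, 24.1 and 26.5 in E2C, and 54.5, 50.0 and 53.2 in L2C. Srsf10 rose from E2C to L2C (1.11 ± 0.21, limma adjusted p = 0.000138). Its rise from PN3 to E2C (0.44 ± 0.16, limma adjusted p = 0.0459) was lost without WT E2C replicates 2 or 3 (adjusted p = 0.0964 and 0.174) or WT PN3 replicates 3 or 4 (0.0667 and 0.0650), and with FPKM as deposited (0.352).

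Srsf7, an SR protein with a zinc knuckle that also serves mRNA export, in WT was 3.58, 3.73 and 3.69 in MII, 3.39, 2.72, 3.18 and 3.83 in PN3, 8.19, 7.67 and 8.58 in E2C, and 21, 15.8 and 15.3 in L2C. In the KO series Srsf7 was 2.29 and 2.32 in MII, 2.58, 2.93, 2.3 and 2.74 in PN3, 4.31, 3.36 and 6.11 in E2C, and 13.9, 15.6 and 17.1 in L2C. It rose in WT at both 2-cell steps (1.1 ± 0.20, limma adjusted p = 0.00017, and 0.99 ± 0.25, limma adjusted p = 0.00212). The other SR genes that rose from E2C to L2C were Srsf2 (0.61), Srsf4 (0.99), Srsf9 (1.65) and Srsf11 (2.3). The calls of Srsf2 and Srsf4 were the weaker ones: Srsf2 was lost without WT E2C replicates 1 or 3 (adjusted p = 0.0930 and 0.104) or WT L2C replicates 1 or 2 (0.0672 and 0.0832), and Srsf4 without WT E2C replicates 2 or 3 (0.0601 and 0.113) or WT L2C replicates 1 or 2 (0.0713 and 0.0558). FPKM per gene does not separate isoforms, and SR genes carry alternative exons that stop translation, so protein output cannot be read from these values.

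**Figure D4:**
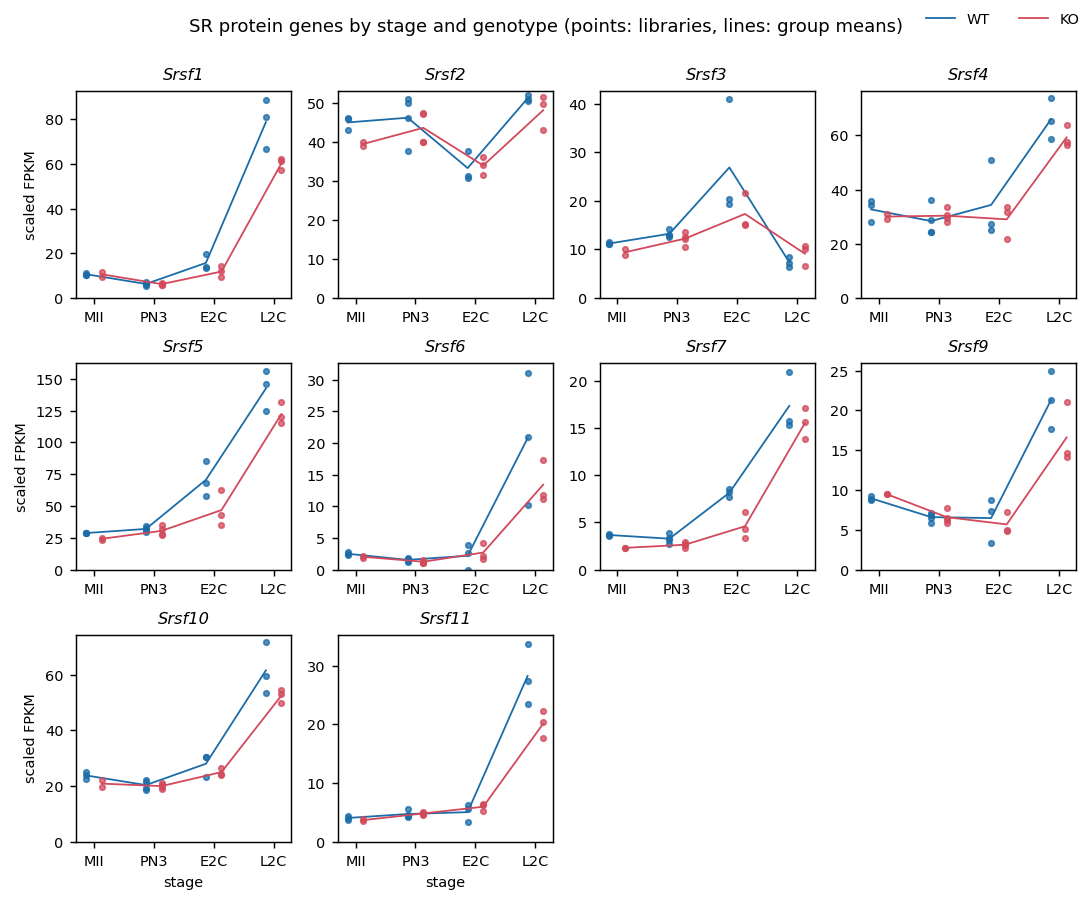
Scaled FPKM (y axis) of the 10 SR protein genes by stage (x axis), with points for libraries and lines through group means, WT in blue and KO in red. Srsf1 reaches 66.6 to 88.7 in WT L2C libraries, Srsf3 is highest at E2C and lowest at L2C in WT, and at MII both Srsf7 KO libraries (2.29 and 2.32) lie below the 3 WT libraries (3.58 to 3.73).

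The oocyte markers that accompany the E2C to L2C step moved too: they summed to 3700 to 4500 in WT E2C libraries and 841 to 2270 at L2C, and their part in these differences was not tested. Across the 52 genes, the E2C to L2C difference had a Spearman rho of -0.66 with the WT level at E2C, from which that difference is itself computed, and of -0.38 with gene length. Both are descriptions over genes that share the same 6 libraries.

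The KO was compared with WT at each stage to ask how the loss of maternal Smarca4 bears on these messages. In eggs, 1 of the 52 genes was higher in KO and 5 were lower, where 5.99% of all genes were higher and 6.99% lower, and the median difference was -0.01 against 0.00. Of the 5, 4 were SR protein genes (Srsf7, Srsf5, Srsf3 and Srsf10) and the other was Prpf38a, while Prpf39 was higher. At an unadjusted p under 0.05 there were 10, of which 9 were lower (19.2% and 17.3% of the 52, against 25.9% and 13.8% of all genes). With equal weights for all libraries none of the 6 was called (background 0.0% higher and 0.00828% lower). Equal weights give every stage the same error. The median SD between replicates was 0.077 at MII and 0.353 at E2C (log2), so that error is too large for eggs. With FPKM as deposited 1 was higher and 9 were lower (background 3.54% and 9.83%). With only the eggs in the fit, Srsf7 alone of the 6 was called (background 1.46% higher and 2.05% lower). In the weighted fit, MII libraries carried 5.25 and E2C libraries 0.265. The oocyte markers differed alongside, with sums of 4510 to 4600 in WT and 4870 to 5010 in KO eggs, and their part was not tested.

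Srsf7 stood at 3.58, 3.73 and 3.69 in WT eggs and 2.29 and 2.32 in KO eggs. The groups did not overlap, and the difference was -0.5 ± 0.07, limma adjusted p = 2.41e-05. This call was kept whichever MII library was left out. At PN3 Srsf7 read 3.39, 2.72, 3.18 and 3.83 in WT and 2.58, 2.93, 2.3 and 2.74 in KO (-0.23 ± 0.08, limma adjusted p = 0.114), and at E2C 8.19, 7.67 and 8.58 against 4.31, 3.36 and 6.11 (-0.74 ± 0.27, limma adjusted p = 0.745). All 3 KO E2C libraries were below all 3 WT E2C libraries, but the adjusted test did not pass at PN3, E2C or L2C (-0.14 ± 0.24, limma adjusted p = 0.801).

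Srsf5 was 28.6, 28.8 and 28.8 in WT eggs and 23.4 and 25 in KO eggs (-0.24 ± 0.06, limma adjusted p = 0.0109). Srsf3 was 11, 11.5 and 11.1 in WT eggs against 8.77 and 9.98 in KO eggs (-0.23 ± 0.07, limma adjusted p = 0.0374), and Srsf10 25.1, 23.9 and 22.4 against 19.7 and 22 (-0.18 ± 0.06, limma adjusted p = 0.0322). Prpf38a was 55.9, 53.9 and 53.1 in WT eggs and 45 and 48.8 in KO eggs (-0.21 ± 0.05, limma adjusted p = 0.0106). In each of these 4 genes both KO libraries lay below all WT libraries. All 4 calls were lost without KO MII replicate 1, at adjusted p of 0.0808 for Srsf5, 0.280 for Srsf3, 0.313 for Srsf10 and 0.110 for Prpf38a. Other single libraries also mattered: without WT MII replicate 1, Srsf3, Srsf10 and Prpf38a were lost (0.0848, 0.168 and 0.0619), without WT MII replicate 2, Srsf3, Srsf5 and Srsf10 (0.154, 0.0532 and 0.109), and without WT MII replicate 3, Srsf3 (0.0987). Prpf39 was 5.52, 5.52 and 5.04 in WT eggs and 6.4 and 8.6 in KO eggs (0.41 ± 0.11, limma adjusted p = 0.0138), and was lost without KO MII replicate 2 (0.22, adjusted p = 0.185) or WT MII replicate 3 (0.37, 0.0716). Over all 52 genes, both KO libraries lay above the WT libraries for 9 and below for 15, which is 17.3% and 28.8% where all genes gave 19.6% and 20.8%.

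In PN3 zygotes 1 splicing gene was higher in KO and 0 were lower (background 1.78% and 1.27%), with 3 at an unadjusted p under 0.05 by limma (5.77% against 16.1% of all genes). With equal weights 0 were called in either direction (background 0.0331% higher and 0.0497% lower). The gene was Lsm4, at 0.455, 0.387, 1.42 and 1.36 in WT and 1.77, 1.97, 2.16 and 1.63 in KO (0.64 ± 0.16, limma adjusted p = 0.029). All 4 KO zygote libraries were above all 4 WT libraries, although WT replicates 1 and 2 were under 0.5 and replicates 3 and 4 close to 1.4. Over the 52 genes, KO lay above WT without overlap for 1 and below for 1, or 1.92% each against 5.09% and 5.11% of all genes. The call was lost without any of 4 libraries: WT PN3 replicates 1 (0.53, adjusted p = 0.114) or 2 (0.51, 0.101) and KO PN3 replicates 2 (0.63, 0.0652) or 3 (0.60, 0.110). It was also lost with only the zygotes in the fit (adjusted p = 0.144).

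At E2C no splicing gene was called by limma, and among all genes 0.0% were higher and 0.00828% lower. At an unadjusted p under 0.05 there were 4, of which 3 were lower (7.69% and 5.77%, against 5.98% and 2.24% of all genes). With equal weights 0 were higher and 2 lower (background 0.828% and 0.927%), Srsf7 and Snrpa, whose values were 16.3, 12.1 and 10.2 in WT and 6.85, 7.02 and 7.46 in KO (-0.75, with an SE of 0.18 and an adjusted p of 0.0418 with equal weights, and of 0.38 and 0.86 with stage weights). Equal weights ignore that the median SD between replicates was 0.353 at E2C and 0.322 at L2C against 0.077 at MII and 0.128 at PN3 (log2). They thus understate the error at both 2-cell stages and overstate it at MII and PN3. KO libraries lay above WT libraries for 2 genes (Sf3a3 and Prpf6) and below for 3 (Snrpa, Sf3b5 and Srsf7), or 3.85% and 5.77% against 5.36% and 4.38% of all genes.

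In late 2-cell embryos 1 splicing gene passed the test, lower in KO, and the other 51 did not pass. The median difference was -0.30 against -0.05 over all genes, and 39 of the 52 (75.0%) were negative against 54.0% of all genes. The 164 further splicing genes described at the end gave -0.28 and 75.0%, so this shift was not particular to the 52. Without WT L2C replicate 1 the median of the 52 was -0.16, and without any other single L2C library it lay between -0.27 and -0.42. The mean of the 52 log2 values per library came to 4.93, 4.73 and 4.51 for WT and 4.47, 4.39 and 4.43 in KO, so the groups did not overlap and WT replicate 3 was the nearest to KO. In counts, 0 were higher and 1 lower (background 0.447% and 0.323%), and 9 were lower at an unadjusted p under 0.05 (17.3% against 9.43% of all genes). KO libraries lay below all WT libraries for 13 genes and above for 1, or 25.0% and 1.92% against 11.4% and 8.76% of all genes.

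The gene that passed was Snrpa1, which stood at 42.3, 32.9 and 26 in WT and 17.9, 14.4 and 13.1 in KO (-1.09 ± 0.25, limma adjusted p = 0.0414). The earlier KO values were 36.4 and 33.9 in MII, 26.5, 27.7, 28.5 and 28 in PN3 and 10.7, 12.9 and 15.9 in E2C libraries, with differences of 0.00, 0.02 and 0.3, none of which passed. The L2C call was lost without WT L2C replicates 1 (-0.92, adjusted p = 0.278) or 2 (-1.10, 0.213) or KO L2C replicates 2 (-1.07, 0.253) or 3 (-1.0, 0.335), and with only the L2C libraries in the fit (0.295). Those fits called few genes at all. Without 1 of these libraries, 0.0248% to 0.0331% of all genes were higher and 0.00828% to 0.0166% lower. With only the L2C libraries, 0.0% were called in either direction. Its promoter is shown because it is the 1 gene called at this stage. The window, chr7:66060086-66060335 on the plus strand, holds 1 match to GGGCGG and lies inside the longer gene span of the GENCODE annotation, which also overlaps Gm45213 on the same strand.
Snrpa1: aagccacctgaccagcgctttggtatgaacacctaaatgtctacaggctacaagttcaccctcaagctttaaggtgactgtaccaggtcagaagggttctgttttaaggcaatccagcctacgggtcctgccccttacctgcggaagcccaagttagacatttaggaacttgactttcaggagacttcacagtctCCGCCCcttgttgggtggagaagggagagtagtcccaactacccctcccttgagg

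Without WT L2C replicate 3, the library whose oocyte and 2-cell markers were at KO levels, 11 of the 52 genes were lower in KO and 0 higher, where 11.7% of all genes were lower and 9.72% higher. This library was the WT one nearest to KO, so leaving it out widens the difference. Without WT replicates 1 or 2 or KO replicates 2 or 3, 0 were lower, where 0.00828% to 0.0166% of all genes were. Without KO replicate 1, 1 was lower (background 0.306%). The 11 were Snrpa1 (-1.26), the tri-snRNP genes Prpf31 (-0.99), Snrnp200 (-1.10) and Eftud2 (-0.76), the SF3a genes Sf3a1 (-0.87), Sf3a2 (-1.23) and Sf3a3 (-0.80), and Sf3b2 (-0.51), Snrpd2 (-1.41), Lsm5 (-1.49) and U2af2 (-0.65). Snrpd2, for one, stood at 69.2, 34.5 and 25.7 in WT and 16.2, 17.3 and 19.8 in KO (-1.11 ± 0.50, limma adjusted p = 0.241 with all libraries). Its KO libraries were all below its WT libraries. With equal weights and all libraries, 9 were lower and 1 higher (background 7.77% and 7.73%), with the understated error described for E2C. The oocyte markers summed to 2080 to 3100 in KO L2C libraries and 841 to 2270 in WT, and their part in the difference was not tested.

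The 13 genes with KO below WT at L2C without overlap were Snrpd2, Snrpa, Snrpa1, Sf3a1, Sf3b2, Sf3b4, U2af1, Lsm2, Lsm5, Prpf38a, Prpf38b, Srsf1 and Srsf11, and Prpf39 was above. Srsf1, for example, gave 88.7, 81.1 and 66.6 in WT and 61.5, 57.5 and 62.1 in KO (-0.37 ± 0.26, limma adjusted p = 0.47). Snrpc, the most abundant at L2C, stood at 173, 171 and 168 in WT and at 174, 166 and 181 in KO libraries (0.03 ± 0.30, limma adjusted p = 0.976). By role, the median differences were -0.47 for U2, -0.41 for the tri-snRNP, -0.21 for SR proteins and 0.18 for the Sm ring.

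**Figure D5:**
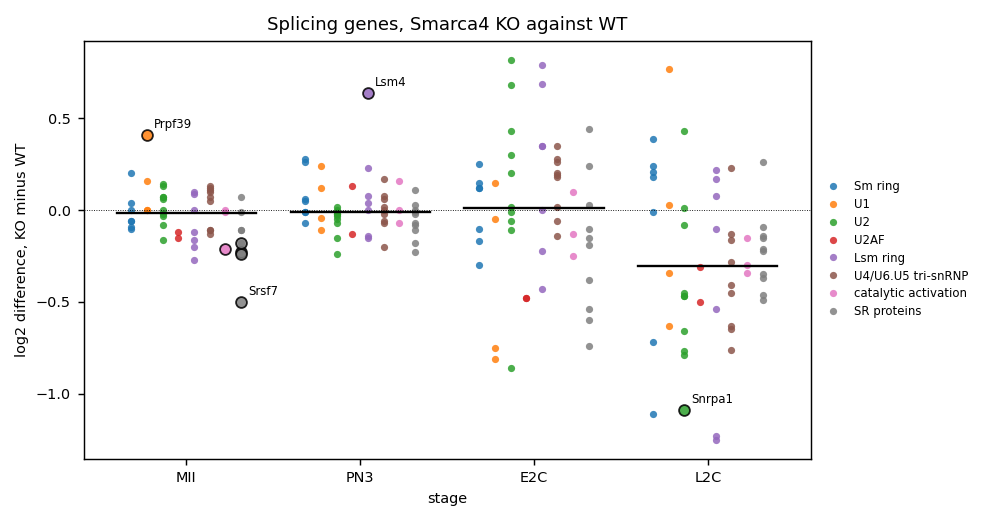
Log2 difference, KO minus WT (y axis), of each splicing gene at the 4 stages (x axis), coloured by role, with black bars at the median of the 52 genes and black outlines for genes that passed limma's adjusted p under 0.05. The bars lie at -0.01, -0.01, 0.01 and -0.30, and the outlined genes are 6 at MII, Lsm4 at PN3 and Snrpa1 at L2C.

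Whether the KO difference itself changed between successive stages was tested as an interaction. Between MII and PN3, PN3 and E2C, and E2C and L2C, 0 of the 52 genes were called in either direction by limma (background 1.39% higher and 0.902% lower, then 0.0% and 0.0%, then 0.0% and 0.00828%), with 2, 3 and 7 at an unadjusted p under 0.05 (3.85%, 5.77% and 13.5%, against 14.9%, 5.32% and 11.4% of all genes). For the last pair, 0 were higher and 5 lower with equal weights (background 2.67% and 3.72%), and likewise 0 and 5 without WT L2C replicate 3 (background 3.28% and 3.68%): Sf3a3, Snrpa1, Prpf31, Sf3a1 and Snrnp200 in the latter. Without WT E2C replicate 3, 1 was lower (background 0.0662%), and without any other single library 0 were (background 0.0% to 0.00828%).

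Promoter windows were found for 44 of the 52 genes (54 windows, since some genes have several starts). CCGGAAG stood in 37.0% of them against 6.91% of all 32851 windows, GGGCGG in 64.8% against 32.7%, CCAAT in 35.2% against 33.8%, TATAAA in 7.41% against 12.4%, CGCATGCG in 7.41% against 1.55%, and TCTCGCGA in 5.56% against 0.858%. The 32851 windows were not limited to genes that passed the filter on low values, as all 52 did, so the 2 sets are unlike. Overlapping windows of the same gene were counted separately. The 17 genes with CCGGAAG included Srsf5 and Snrpc, which rose from E2C to L2C, and Snrnp27, Snrpb2 and Sf3b3, which fell. A match describes the letters of a window and no binding.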

How the data were processed

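Total RNA depleted of ribosomal RNA was sequenced from 25 libraries with a stranded kit and 150-base paired reads, per the labels' protocols. The authors deposited FPKM per gene for each library, and how many reads lie behind a value is unknown. Builds mm10 and GRCm38 and the tools HISAT2, HTSeq, StringTie and Trim Galore (0.4.5) are listed, with no roles, per the submitters' processing notes. FPKM values were rescaled between libraries by median ratios over 6492 genes, filtered (at least 1 FPKM in at least 3 libraries) and tested as log2(scaled FPKM + 1) with limma 3.58.1 in R 4.3.3. The model had 8 group means, 17 residual degrees of freedom, 1 precision weight per stage (5.25 for MII, 2.26 for PN3, 0.265 for E2C and 0.32 for L2C, since spread differed by stage) and Benjamini-Hochberg adjustment over 12079 genes. The script was tested on simulated data. Alternatives were equal weights, only the groups compared, FPKM as deposited, TPM, a pseudocount of 0.1, no filter, a replicate block and each library left out. Members and lists were chosen with earlier results of these data known. Values in every library were given for members called in a KO comparison, those with the largest WT difference from MII to PN3 or from E2C to L2C in each role, and the most abundant of each role. Tables and plots used Python 3.11.15, pandas 2.3.3 and matplotlib 3.10.9.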

Additional observations from a re-analysis of the deposited data

Results flagged for a closer look

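Lsm3 in WT PN3 replicate 1, at 58.8 scaled FPKM, stood below the other WT zygote libraries (65.2, 64.5 and 64.4). Its gap to the nearest of them was 0.876 of the whole range, above Dixon's 95% critical value for 4 samples. It was 1 of 50 groups of 4 that were looked at, and chance flags about 1 in 20.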

How the results depend on the processing

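Of 104 single-gene results, 636 of 728 values under other settings and 596 of 682 with 1 library left out kept their direction and their side of the threshold, 92 and 86 no longer passed, and 0 reversed. With equal weights, the counts of members in KO against WT were 0 higher and 0 lower at MII, 0 higher at PN3, 2 lower at E2C, and 1 higher and 9 lower at L2C, while from MII to PN3 in WT 0 rose and 9 fell, and the KO effect at L2C against E2C was lower for 5. The shares of all genes with equal weights stand beside these counts above. With only the groups compared, which leaves fewer samples, 0 were higher and 1 lower in KO at MII (background 1.46% and 2.05%). There, 0 were higher at PN3 (0.397%) and 0 lower at L2C (0.0%), and 8 rose from PN3 to E2C in WT (6.83%). With FPKM as deposited, 9 were lower in KO at MII and 19 fell from PN3 to E2C (background 9.83% and 25.2%). With a pseudocount of 0.1 or no filter, 0 were higher in KO at PN3 (1.28% and 0.644%), and with no filter 0 were lower at L2C (0.213%). Leaving out 1 library gave 0 to 1 higher and 1 to 6 lower in KO at MII (background 2.78% to 7.97% and 3.55% to 8.95%). At PN3 it gave 0 to 1 higher and 0 to 1 lower (0.82% to 1.95% and 0.596% to 1.15%). At L2C 0 to 11 were lower (0.00828% to 11.7%), and for the KO effect at L2C against E2C 0 to 5 were lower (0.0% to 3.68%). The causes were not tested. Replicate numbers were not taken as pairs, since not every same-numbered pair of WT and KO libraries deviated together with r above 0.1: the MII pairs gave -0.12 and 0.045, the 4 PN3 pairs 0.013, 0.372, 0.115 and 0.428, the E2C pairs 0.067, 0.081 and 0.16, and the L2C pairs 0.126, -0.184 and 0.215. The MII values cannot decide, since with 2 KO egg libraries the deviations of KO replicate 1 mirror those of KO replicate 2. At E2C every library correlated best with its own number and at PN3 WT replicate 1 did not, which is a hint from the data and not the design. At PN3, WT replicate 2 gave r of 0.299 and 0.372 with KO replicates 1 and 2, and -0.28 and -0.381 with 3 and 4. For WT replicate 4 these were -0.324 and -0.397, then 0.279 and 0.428. WT replicates 1 and 3 gave weaker values, from -0.198 to 0.19. Zygote replicates 1 and 2 thus tended to differ from 3 and 4 in both genotypes. The main fit had no term for this split, so it stays in the scatter of the PN3 comparisons, and its source was not tested. With the replicate block, 0 members were higher in KO at MII (background 3.45%) and 1 was lower at PN3 (3.88%), while the calls over all genes at PN3 went from 215 higher and 154 lower to 613 and 469. The depth is unknown, so no counting limit can be given for genes listed at 0.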

Other observations

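Outside the 52 genes, 164 further splicing genes were tested in lists chosen with earlier results of these data known. From E2C to L2C in WT, 84 rose and 17 fell, with a median of 0.66 against 0.25 over all genes, of which 34.1% rose and 18.3% fell. Of 24 genes for snRNP assembly, 15 rose and 3 fell. Wdr77, a partner of the methyltransferase that modifies Sm proteins, went from 0.635 ± 0.562 (SD, n = 3) to 19.2 ± 4.04 scaled FPKM (log2 difference 3.68 ± 0.27, limma adjusted p = 2.77e-10). Of 21 SR-related genes and SR kinases, 12 rose and 4 fell. Tnpo3, which imports SR proteins into the nucleus, rose from 1.48 ± 0.0958 to 55.8 ± 12.3 (4.49 ± 0.25, limma adjusted p = 1.17e-11). Of 12 genes of the minor spliceosome, which removes a rare class of introns, 8 rose and 2 fell.

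Other lists moved at earlier steps. From MII to PN3, 44 of the 164 rose and 40 fell (19.2% and 26.1% of all genes). Magoh, a core protein of the exon junction complex, rose from 117 ± 10.5 to 240 ± 33.2 (1.02 ± 0.08, limma adjusted p = 2.8e-10), and Ddx39b, a helicase of early assembly and mRNA export, fell from 21.0 ± 0.244 to 3.87 ± 0.674 (-2.18 ± 0.12, limma adjusted p = 7.1e-13). From PN3 to E2C, 31 rose and 35 fell (12.9% and 18.1% of all genes). Zcrb1, a protein of the minor spliceosome, fell from 162 ± 13.6 to 16.1 ± 4.04 (-3.27 ± 0.26, limma adjusted p = 2.89e-09). In KO eggs 8 were higher and 18 lower (5.99% and 6.99% of all genes), among them Luc7l, a U1-associated protein, at 11.6 ± 1.08 in WT and 7.30 ± 1.74 in KO (-0.62 ± 0.10, limma adjusted p = 0.000228). In KO zygotes 3 were higher and 1 lower (1.78% and 1.27%). At E2C limma called 0, with 9 at an unadjusted p under 0.05 (5.49% against 5.98% of all genes). At L2C 0 were higher and 1 lower (0.447% and 0.323%), Nono, a nuclear RNA-binding protein of paraspeckles, at 75.1 ± 21.7 in WT and 43.0 ± 3.7 in KO (-0.75 ± 0.17, limma adjusted p = 0.0414). Over the 164, the median L2C difference was -0.28 against -0.05 over all genes, and 75.0% were negative against 54.0%. At an unadjusted p under 0.05 by limma, 16.5% were lower and 2.44% higher, against 9.43% and 8.24% of all genes.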
